A study of Mus musculus with 2 samples.

Results

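The Ube2 genes of the mouse, which encode ubiquitin-conjugating (E2) enzymes and their relatives, were examined for peaks of an anti-Usp16 chromatin immunoprecipitation (ChIP). They were taken as all protein-coding genes of the RefSeq annotation of GRCm38 whose symbol begins with Ube2, which gave 37 of 21887 protein-coding genes on the assembled nuclear chromosomes. The name is not a perfect guide to the enzyme: Ube2cbp is also listed as Ube3d, the name of a ligase, and Ube2v1 and Ube2v2 encode variants that lack the catalytic cysteine.

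The study asked which genes are enriched for Usp16, a protease that removes ubiquitin from histone H2A, in blood stem and progenitor cells. Bone marrow cells positive for the surface proteins c-Kit and Sca-1 came from mice with Mx1 Cre and loxP-flanked Usp16 alleles, and chromatin was sheared to about 200 bp. Both libraries, 1 with the anti-Usp16 antibody and 1 with IgG, came from this genotype. Mx1 Cre is driven by an interferon-responsive promoter, and the labels give neither an induction nor the age or number of the animals, so whether the cells still held Usp16 is not given. The values below come from 1 list of 5079 peaks of the anti-Usp16 library, and the IgG library was not analysed here. There were no replicates and no test across samples was possible, so shares are given with exact Clopper-Pearson 95% intervals that cover counting error only. The list starts at a peak score of 50 and read depth is unknown, so a gene without a peak is not shown to be unbound. The list holds no expression values, so the identity of the sorted cells could not be checked from markers.

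Ubiquitin reaches a substrate in a relay: an E1 enzyme activates it, an E2 enzyme carries it as a thioester, and an E3 ligase directs its transfer. The E2 often sets which lysine and which chain type is made. Some E2 enzymes carry other modifiers: Ube2m and Ube2f carry NEDD8, and Ube2l6 carries ISG15. Histones are substrates too. The Ube2d enzymes work with the Polycomb ligases Ring1 and Rnf2 on histone H2A, from which Usp16 removes ubiquitin, and Ube2a and Ube2b, the mouse relatives of yeast Rad6, work with Rnf20 and Rnf40 on histone H2B.

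A peak overlapping the window of 1 kb to either side of an annotated end of the gene, by 1 bp or more, was called a gene-end peak, and any other peak touching the gene record an inside peak. By this rule 9 of the 37 Ube2 genes were carriers (24.3%, interval 11.8 to 41.2%), beside 13.9% of all protein-coding genes (3033 of 21887). These were Ube2d3, Ube2j2, Ube2g2, Ube2f, Ube2q1, Ube2r2, Ube2m, Ube2g1 and Ube2c, each with 1 peak. A further 2, Ube2b among them, held 1 inside peak and no gene-end peak (5.41%, beside 4.04% of all protein-coding genes). Together 11 Ube2 genes had a peak (29.7%, interval 15.9 to 47.0%, beside 17.9%), and 26 had none. The intervals for gene-end peaks and for any peak both contained the share of all protein-coding genes.

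The sequences before the start of transcription are shown for 3 pairs of close relatives in which 1 gene had a peak at its start and the other had none: Ube2d3 and Ube2d1, which serve histone H2A, Ube2b and Ube2a, which serve histone H2B, and Ube2j2 and Ube2j1, which sit in the membrane of the endoplasmic reticulum. Each is the 250 bases before the most upstream start in the RefSeq promoter table of GRCm38.p6, read 5′ to 3′ on the strand of the gene. They lie at chr3:135437982-135438231 (plus strand, Ube2d3), chr10:71285263-71285512 (minus, Ube2d1), chr11:52000787-52001036 (minus, Ube2b), chrX:36874045-36874294 (plus, Ube2a), chr4:155943563-155943812 (plus, Ube2j2) and chr4:33031130-33031379 (plus, Ube2j1). Capitals mark matches, on either strand, to 8 short motifs. The GC box of Sp1-type factors was searched as GGGCGG and the CCAAT box of the factor NFY as CCAAT. The site of ETS-family factors was searched as CCGGAAGT, and the site of CREB-type factors, the CRE, as TGACGTCA. The E-box of basic helix-loop-helix factors was searched as CACGTG and the TATA box of basal promoters as TATAAA. The motifs of NRF1 and YY1 were searched as well, and none was found in these 6 stretches.
Ube2d3: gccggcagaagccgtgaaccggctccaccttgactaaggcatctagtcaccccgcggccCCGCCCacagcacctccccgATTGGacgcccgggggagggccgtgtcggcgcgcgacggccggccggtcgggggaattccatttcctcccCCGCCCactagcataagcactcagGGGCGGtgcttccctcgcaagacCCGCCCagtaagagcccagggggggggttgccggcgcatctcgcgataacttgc
Ube2d1: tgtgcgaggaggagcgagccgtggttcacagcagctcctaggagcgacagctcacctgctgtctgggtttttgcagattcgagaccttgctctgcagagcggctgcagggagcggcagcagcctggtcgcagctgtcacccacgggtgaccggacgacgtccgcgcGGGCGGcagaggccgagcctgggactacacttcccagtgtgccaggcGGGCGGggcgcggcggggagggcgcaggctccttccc
Ube2b: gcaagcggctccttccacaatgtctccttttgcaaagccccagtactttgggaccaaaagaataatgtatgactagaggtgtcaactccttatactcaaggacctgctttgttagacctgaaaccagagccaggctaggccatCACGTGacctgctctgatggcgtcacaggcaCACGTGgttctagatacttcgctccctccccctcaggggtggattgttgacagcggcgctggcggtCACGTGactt
Ube2a: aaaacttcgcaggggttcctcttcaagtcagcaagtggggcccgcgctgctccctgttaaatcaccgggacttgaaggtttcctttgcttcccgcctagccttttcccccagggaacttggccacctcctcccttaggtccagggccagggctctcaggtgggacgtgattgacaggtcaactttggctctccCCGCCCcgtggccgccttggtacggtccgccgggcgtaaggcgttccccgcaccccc
Ube2j2: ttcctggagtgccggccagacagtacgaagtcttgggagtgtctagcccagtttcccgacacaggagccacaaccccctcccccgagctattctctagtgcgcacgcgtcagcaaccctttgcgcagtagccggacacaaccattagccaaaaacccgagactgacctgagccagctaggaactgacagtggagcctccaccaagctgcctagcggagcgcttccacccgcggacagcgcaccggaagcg
Ube2j1: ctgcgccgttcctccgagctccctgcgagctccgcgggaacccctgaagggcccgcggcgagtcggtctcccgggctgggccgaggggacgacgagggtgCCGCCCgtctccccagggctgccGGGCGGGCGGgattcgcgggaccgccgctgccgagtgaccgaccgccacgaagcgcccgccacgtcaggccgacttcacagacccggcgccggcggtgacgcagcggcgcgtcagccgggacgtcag

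Peaks covered 247 of the 250 bases shown for Ube2d3 and all 250 of those for Ube2b and Ube2j2, and none of the bases shown for Ube2d1, Ube2a and Ube2j1. The Ube2d3 stretch held 4 GC boxes, on both strands, and 1 NFY match. Its relative without a peak, Ube2d1, held 2 GC boxes and had nearly the same CpG content (9.2 against 10.4 CpG per 100 bases). The Ube2b stretch was poor in CpG, at 3.6 per 100 bases, and held 3 E-boxes. Ube2a, without a peak, had 6.0 CpG per 100 bases and 1 GC box. None of the 8 motifs was found in the Ube2j2 stretch, and Ube2j1 held 3 GC boxes, of which the last 2 overlap, and had the highest CpG content of the 30 Ube2 genes with a promoter entry, at 16.4 per 100 bases. A match is a run of letters, not a bound site. The Ube2d3 stretch also lies in the record of the lncRNA gene 4930539J05Rik, and part of the Ube2b stretch in that of Cdkl3. All of the Ube2b stretch lies inside the record of Ube2b itself, which runs to 52004145. Part of the Ube2d1 stretch lies inside the Ube2d1 record, which ends at 71285384. These 2 stretches are therefore not purely sequence outside the gene.

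Among the genes acting on histones H2A and H2B, 1 of the 3 main Ube2d genes and 1 of the 2 Rad6 relatives had a peak. Ube2d3 carried the highest-scoring peak of any Ube2 gene (chromosome 3, 135437985 to 135438955). Its score, the peak caller's own value, was 275, which ranked 110 of 5079 in the list. The peak was 971 bp wide and covered 3 of the 4 annotated starts of Ube2d3. It also covered a start of the lncRNA gene 4930539J05Rik, whose record ends inside the Ube2d3 gene. The signal could therefore not be given to 1 of the 2 genes.

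At Ube2b the peak counted as inside, since the gene record extends well beyond the starts in the promoter table. The record runs on chromosome 11 from 51985138 to 52004145, and the peak (51999832 to 52001777, score 113, rank 903) lay 2368 bp from the upper end. Both starts of Ube2b in the promoter table lie within this peak, whose midpoint was 18.5 bp upstream of the nearer one. The peak was 1946 bp wide, the 73rd widest of the list and the widest at any Ube2 gene. It also covered the lower end of Cdkl3, a kinase gene (52000842 to 52089778), so the signal could not be given to either gene alone. Ube2a, the X-linked Rad6 relative (36874295 to 36884222), had no peak, and the nearest midpoint was 19.3 kb from the gene, in a peak that reached an end of Nkrf.

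The other genes of this group had no peak. For Ube2d2a (chromosome 18, 35771559 to 35807172) the nearest midpoint was 7.81 kb away, the shortest distance of any Ube2 gene without a peak. For Ube2d1 (chromosome 10, 71254980 to 71285384) it was 1008 kb away, the longest. Ube2e1, an E2 that can pair with ligases of both histones, had its nearest midpoint at 11.9 kb. Ube2n, which builds Lys63-linked chains, stood at 191 kb, and its partners Ube2v1 and Ube2v2 at 43.6 and 43.0 kb. The histone group as a whole counted 1 gene-end peak and 1 inside peak among 9 genes, beside 13.9% and 4.04% of all protein-coding genes.

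The ligases that these enzymes serve on histones H2A and H2B were looked up in the same way. None of 8 genes, Rnf2, Ring1, Rnf8, Rnf168, Rnf20, Rnf40, Brca1 and Bard1, was a carrier (interval 0 to 36.9%, beside 13.9% of all protein-coding genes). Bard1 held 1 inside peak.

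**Figure D1:**
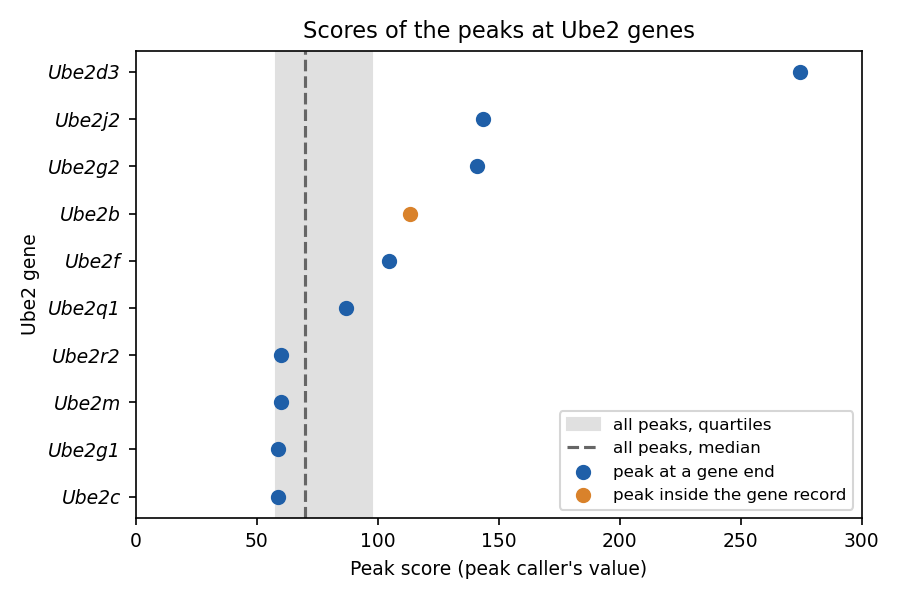
Scores of 10 peaks at Ube2 genes (x axis, the peak caller's value; y axis, genes ordered by score), in blue for gene-end peaks and in orange for inside peaks, with the median (70.1) and quartiles (57.9 and 97.5) of all 5079 peaks. Scores at Ube2r2, Ube2m, Ube2g1 and Ube2c lie between 58.6 and 60.1, and the other 6 shown lie above the median.

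Of the 4 genes whose products act at the endoplasmic reticulum, where misfolded proteins are marked for degradation, 3 carried a gene-end peak, too few genes to set firmly against the 13.9% of all protein-coding genes. Ube2j2, a membrane-anchored enzyme, had a peak of score 144 over its start (chromosome 4, 155943442 to 155944035, rank 541). At 594 bp it was the narrowest peak of any Ube2 gene, and it reached the end of no other gene. Ube2g2, the partner of the gp78 ligase, had a peak of score 141 over the lower end of its record (chromosome 10, 77621761 to 77622472, rank 569). Ube2g1 had a weak peak of score 58.8 (chromosome 11, 72608237 to 72608891, rank 3653), which began 976 bp downstream of its start and so reached the window only at its edge. This peak no longer counted with a window of 500 bp, with its midpoint in the window or with at least 50% of the peak in the window, nor with only peaks at or above the median score. Ube2j1, the second membrane-anchored enzyme, had none, and its nearest midpoint was 344 kb away.

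The E2 genes of the modifier NEDD8, Ube2f and Ube2m, both counted as carriers, beside 13.9% of all protein-coding genes, but only the Ube2f peak lay at a start of its own gene. Ube2f, a NEDD8 enzyme that pairs with cullin 5, had a peak of score 105 (chromosome 1, 91249877 to 91250533, rank 1084) that covered 1 of its 2 annotated starts. Ube2m, the other NEDD8 enzyme, had a peak of score 59.9 (chromosome 7, 13033787 to 13035083, rank 3514), which lay 37 bp beyond the downstream end of the gene and 2544 bp from its nearest start. That peak covered a start of Chmp2a, a gene of the membrane-remodelling ESCRT machinery, 342 bp from the midpoint. Ube2l6, which carries ISG15, had no peak, and the nearest midpoint was 16.9 kb away, in a peak that reached ends of Timm10 and Smtnl1.

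Of the 4 genes with roles in cell division and DNA damage, Ube2c and Ube2r2 carried low-scoring peaks, beside 13.9% of all protein-coding genes. With only peaks at or above the median score neither counted, where the share of all protein-coding genes was 7.99%. Ube2c starts ubiquitin chains for the anaphase-promoting complex, and its peak of score 58.6 covered its start (chromosome 2, 164769236 to 164770035, rank 3681). Ube2r2 is a relative of Cdc34 that works with SCF ligases, and its peak of score 60.1 began 8 bp downstream of its start (chromosome 4, 41136029 to 41136840, rank 3492). Neither peak reached the end of another gene. Ube2s, which extends chains for the same complex as Ube2c, had its nearest midpoint at 15.1 kb, in a peak that reached an end of Rpl28. Ube2t, the E2 of the Fanconi anaemia pathway, had its nearest at 15.4 kb.

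Among the remaining 16 genes only Ube2q1 carried a peak, where 17.9% of all protein-coding genes had one at an end or inside. The Ube2q1 peak had a score of 86.9 (chromosome 3, 89772474 to 89773554, rank 1588). This peak ended 55 bp upstream of the start of Ube2q1 and covered a start of the lncRNA gene 4632404H12Rik. Its relatives Ube2q2 and Ube2ql1 had their nearest midpoints at 286 and 91.0 kb. None of 7 ubiquitin E2 genes of broad use (Ube2e2, Ube2e3, Ube2k, Ube2l3, Ube2h, Ube2w and Ube2z) had a peak. These are too few genes to set firmly against the 17.9%. Their nearest midpoints ran from 19.8 kb at Ube2l3 to 540 kb at Ube2z. The others without a peak were Ube2o, a very large enzyme with both E2 and E3 activity, Ube2u, Ube2d2b, Ube2dnl1, Ube2dnl2 and Ube2cbp, at 47.3, 43.1, 89.8, 110, 107 and 128 kb. How uniquely reads could be placed on members of the Ube2d family, which have similar coding sequences, was not tested.

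**Figure D2:**
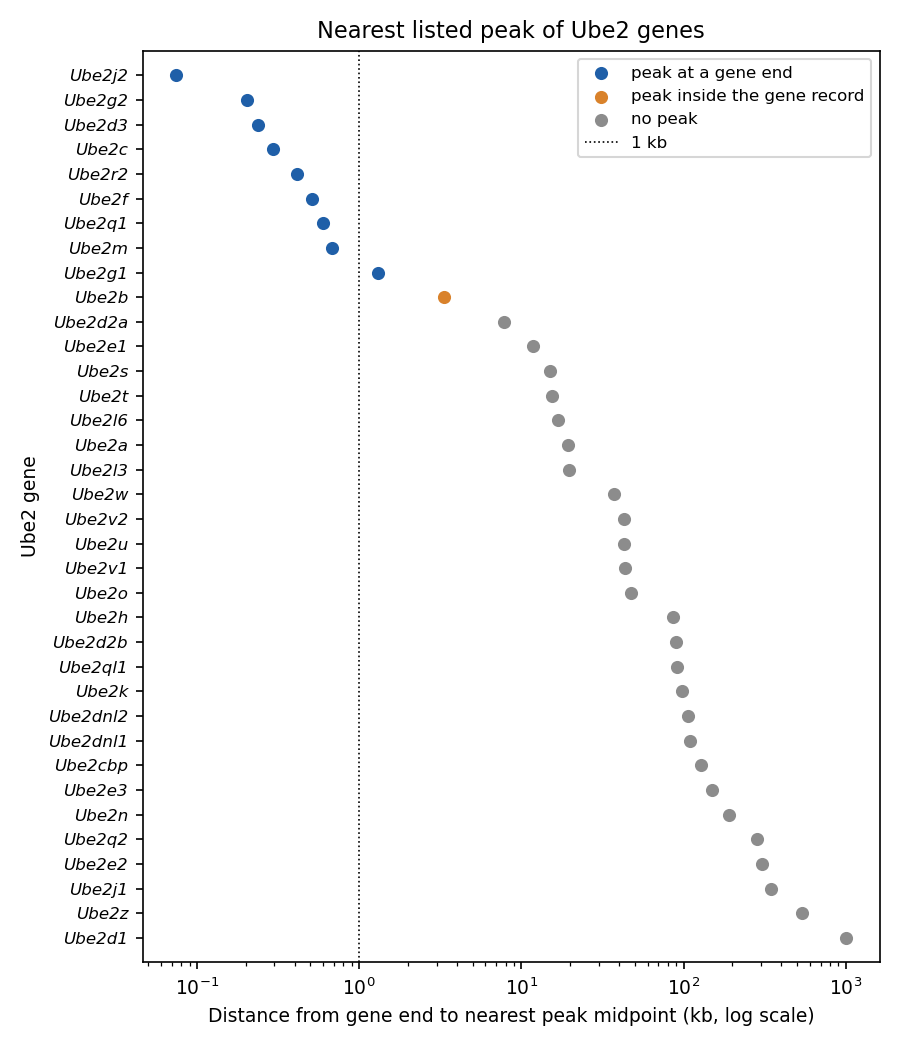
Distance from the nearer gene end to the nearest peak midpoint for 36 of the 37 Ube2 genes (x axis in kb on a log scale, genes ordered by distance), coloured by whether the gene had a gene-end peak, an inside peak or none. Only Ube2g1 among the gene-end carriers has its midpoint beyond 1 kb, and genes without a peak begin at 7.81 kb with Ube2d2a.

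For the 26 Ube2 genes without a peak the median distance to the nearest midpoint was 88.2 kb, ranging from 7.81 to 1008 kb, beside a median of 124 kb for the 17969 protein-coding genes without one. The 3 X-linked members, Ube2a, Ube2dnl1 and Ube2dnl2, were all among these genes, and 3.73% of the 966 protein-coding genes of chromosome X carried a gene-end peak. Without chromosomes X and Y the Ube2 share was 26.5% (9 of 34), beside 14.5%.

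Scores at the Ube2 genes spread widely. The 9 gene-end peaks had scores from 58.6 to 275 with a median of 86.9, beside a median of 74.4 for the 2466 gene-end peaks of all protein-coding genes. Of these 9, 5 were at or above the median of the list (55.6%, beside 56.5% of the 2466), and these were Ube2d3, Ube2j2, Ube2g2, Ube2f and Ube2q1. With only such peaks, 13.5% of the Ube2 genes were carriers (interval 4.54 to 28.8%), beside 7.99% of all protein-coding genes. The 9 peaks had a median width of 800 bp, beside 788.5 bp.

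Strand, taken from the RefSeq promoter table, was known for 30 of the 37 Ube2 genes and for 17492 of all protein-coding genes. Of these 30, 8 had a peak within 1 kb of an annotated start (26.7%, interval 12.3 to 45.9%), beside 14.2% of all genes with an entry. They were Ube2d3, Ube2j2, Ube2b, Ube2f, Ube2q1, Ube2r2, Ube2g1 and Ube2c. Among the 8 gene-end carriers with an entry, 7 had the peak at a start and Ube2m had it at the other end. The same held for 2292 of 2529 carriers among all protein-coding genes (90.6%). Peaks covered a start of their own gene at Ube2d3, Ube2j2, Ube2b, Ube2f and Ube2c. Midpoints were upstream of the nearest start by 10 bp at Ube2d3, 74.5 bp at Ube2j2, 99 bp at Ube2f, 293.5 bp at Ube2c and 595 bp at Ube2q1, and downstream by 413.5 bp at Ube2r2 and 1303 bp at Ube2g1. The arrangement at Ube2b occurred elsewhere too: of 703 protein-coding genes with an entry and an inside peak only, 191 (27.2%) had that peak within 1 kb of an annotated start.

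**Figure D3:**
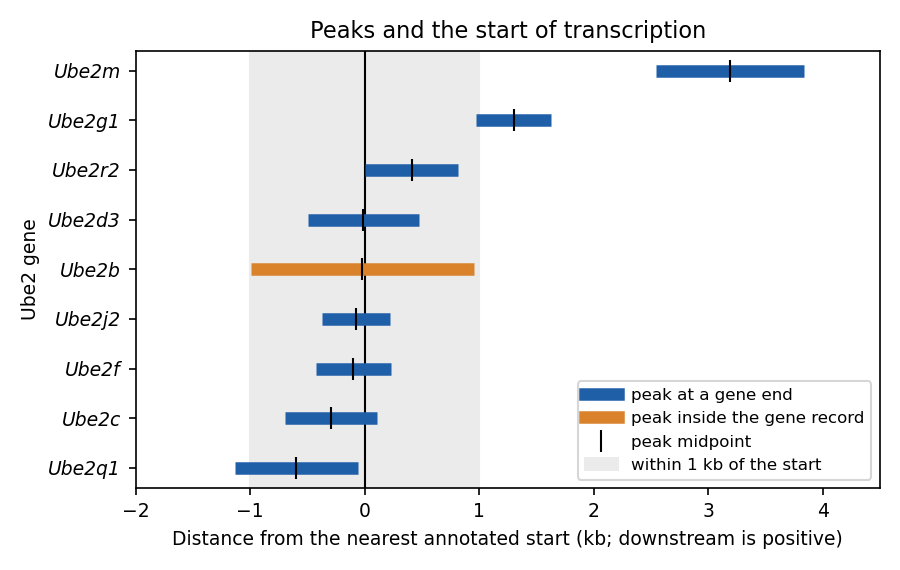
Extent of each peak (bars; black ticks mark midpoints) relative to the nearest annotated start of its Ube2 gene (x axis in kb, downstream positive), for the 9 genes with a promoter entry, with the 1 kb window in grey. The Ube2b peak, inside its gene record, is centred 18.5 bp upstream of a start, and the Ube2m peak lies beyond the window, at the far end of the gene.

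Some of the peaks were shared with neighbouring genes. Of the 9 gene-end peaks, 3 also reached the end of another gene (33.3%, beside 39.9% of all gene-end peaks of protein-coding genes). The neighbours were the lncRNA genes 4930539J05Rik at Ube2d3 and 4632404H12Rik at Ube2q1, and the protein-coding gene Chmp2a at Ube2m. In all 3 the peak covered an annotated start of the neighbour. The inside peak of Ube2b was shared as well, with Cdkl3. Another gene end lay within 1 kb of an end of 5 of the 9 carriers (55.6%) and 8 of the 28 other Ube2 genes (28.6%). For all protein-coding genes the same shares were 57.9% of carriers and 31.0% of the rest. Carriers had a median gene length of 23.7 kb and the other Ube2 genes 33.1 kb, while the medians over all protein-coding genes were 18.1 and 17.0 kb.

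The CpG content of the upstream sequence was compared between Ube2 genes with and without a start peak. Over the 250 bases before the most upstream start, the 8 genes with a start peak had a median of 9.8 CpG per 100 bases (3.6 to 14.4), the 22 without one 7.4 (0.4 to 16.4) and all protein-coding genes with an entry 4.0. The first range lay inside the second: Ube2b, with a peak, was at 3.6, and Ube2j1, Ube2q2, Ube2n and Ube2e2, without one, were at 16.4, 14.0, 12.8 and 12.8. Among all protein-coding genes the medians were 6.8 with and 3.2 without a start peak. A GC box was found in 5 of 8 and 13 of 22 Ube2 promoters, beside 55.4% of all promoters with and 40.6% without a start peak. An NFY match was found in 3 of 8 and 6 of 22, beside 35.8% and 36.6%. An E-box was found at Ube2q1 and Ube2b, 2 of 8, and in 0 of 22, beside 9.38% and 6.2%. The TATA box was found in 0 of 8 and 3 of 22, beside 6.12% and 13.4%. The ETS match was found only at Ube2n, without a start peak, beside 9.26% of all promoters with and 2.92% without one. The CRE was found only at Ube2h, without a start peak, beside 3.1% and 1.8%. The YY1 match was found only at Ube2g1, with a start peak, beside 0.846% and 0.273%. No Ube2 stretch held the NRF1 motif, beside 1.65% and 0.959%. Copies of the E-box numbering 3 or more, as at Ube2b, were present in 15 of 17492 promoters, a count made after the Ube2b sequence was seen.

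**Figure D4:**
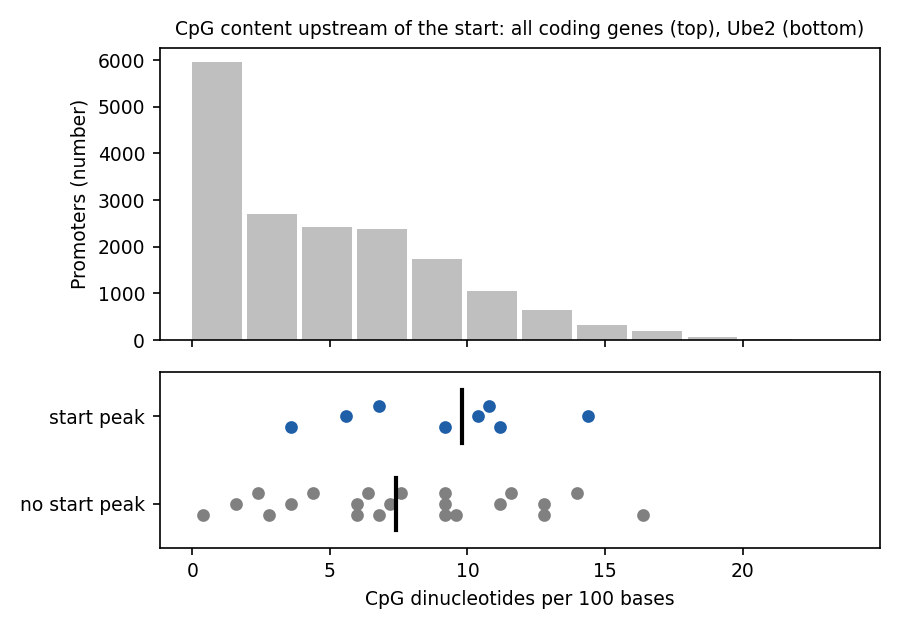
CpG dinucleotides per 100 bases in the 250 bases before the most upstream start (x axis), as a histogram of 17492 protein-coding genes in bins of 2 (top) and as 1 point per Ube2 gene, with the median as a bar (bottom). Ube2 genes with a start peak (median 9.8) and without (median 7.4) overlap over most of the range.

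Other genes of the ubiquitin pathway were counted by the same rule and set beside the 13.9% of all protein-coding genes, which lay inside the intervals of the E1 and E2-fold lists and below that of the modifiers. Of 10 E1 genes 3 were carriers (30.0%, interval 6.67 to 65.2%), among them Uba1, the main ubiquitin E1 (score 103), and Nae1, a subunit of the NEDD8 E1 (51.2). Of 13 genes for ubiquitin and similar modifiers 6 did (46.2%, interval 19.2 to 74.9%). These included the ubiquitin genes Rps27a (75) and Ubb (56.3), together with Atg12 (157), Isg15 (61.5) and Ufm1 (54.4). No gene-end peak was listed for Nedd8, the modifier carried by Ube2m and Ube2f. Of 8 annotated genes with an E2 fold but another name, 3 did (37.5%, interval 8.52 to 75.5%): Birc6, a giant E2 and E3 protein that restrains cell death (139), Ufc1, the E2 of UFM1 (119), and Uevld (64.8). Cdc34, the close relative of Ube2r2, did not.

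Partners of some members were counted too, again beside 13.9% of all protein-coding genes, which lay below the intervals of both lists. These differences were not tested. Of 16 genes of the anaphase-promoting complex and its activators, which work with Ube2c and Ube2s, 6 were carriers (37.5%, interval 15.2 to 64.6%): Cdc16 (135), Anapc5 (131), Anapc13 (113), Anapc7 (57.1), Anapc1 (50.5) and Cdc26 (50). Anapc15 held 1 inside peak. Of 10 cullin and Rbx genes 5 were carriers (50%, interval 18.7 to 81.3%): Cul4a (141), Cul2 (82.8), Rnf7 (80.5), Cul3 (78.2) and Cul5 (62.5). NEDD8 modifies the cullins. Rnf7 and Cul5 are the partners of Ube2f. Several of these peaks reached a second gene as well, such as Pcid2 at Cul4a, Ap3s1 at Atg12 and Cep63 at Anapc13.

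Set beside other families of the pathway, the Ube2 share of 24.3% was close to the 24.0% of 50 numbered Usp genes, which encode ubiquitin proteases (12 carriers), and lay between the 17.5% of 80 numbered Rnf genes, which encode RING finger proteins (14 carriers), and the 32.7% of 49 Psm genes of the proteasome (16 carriers). The interval of each of these 3 shares overlapped that of the Ube2 genes, and the differences were not tested.

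**Figure D5:**
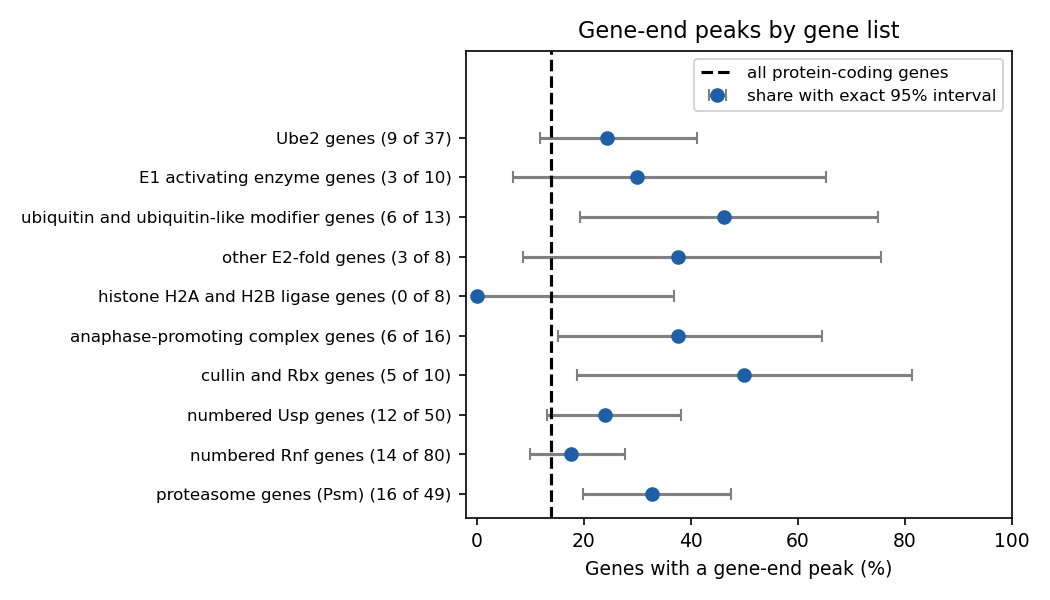
Share of genes with a gene-end peak in each list (x axis in percent, points with exact 95% intervals; counts in brackets on the y axis), with the share of all protein-coding genes (13.9%) as a dashed line. The Ube2 interval, from 11.8 to 41.2%, spans the dashed line and overlaps those of all other lists.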

How the data were processed

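The data are 1 deposited list of peaks from an anti-Usp16 ChIP library of mouse bone marrow cells, with 1 IgG library in the design. Per the file headers, the authors called peaks with MACS in Galaxy. Bowtie, Picard and build mm10 are named per the submitters' processing notes. For versions, settings and the role of the IgG library, the sources used here give nothing. The score column deposited by the authors comes from the peak caller, on a scale that is not given.

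Starts were made 1-based, and 5046 of 5079 peaks lay on assembled chromosomes. Genes came from the RefSeq table of GRCm38.p6, and strand and sequence from its promoter table. Overlaps, counts, medians and exact intervals were computed in Python 3.11.15 with pandas 2.3.3, numpy 2.4.6 and scipy 1.17.1, and the overlap step was tested on simulated peaks. The Ube2 genes, the 6 pathway lists and the motifs were chosen with earlier results of these data known. The rule was to name every Ube2 gene, and every listed pathway gene with a gene-end peak, but some are not reported here. A planned comparison of protein sequences was not run. Alternatives were windows of 500 bp and 5 kb, the midpoint or at least 50% of the peak in the window, the higher-scoring peaks, no X and Y, and a list by E2 fold. Added after the data were seen were annotated starts as ends and a background without genes named Olfr or Vmn.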

Additional observations from a re-analysis of the deposited data

How the results depend on the processing

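Of 185 checks of single Ube2 genes under 5 settings, 176 kept their gene-end status. The other 9 were Ube2g1 under 4 settings, Ube2c, Ube2r2 and Ube2m with only peaks at or above the median score, and 2 genes, Ube2b among them, with a window of 5 kb. Ube2d3, Ube2j2, Ube2g2, Ube2f and Ube2q1 counted under all 5. The number of Ube2 genes with a gene-end peak ranged from 8 to 11 under the other windows, overlaps and chromosome settings. With 500 bp the share was 21.6%, beside 13.0% of all protein-coding genes, and with 5 kb 29.7%, beside 18.3%. With the midpoint or at least 50% of the peak in the window it was 21.6%, beside 13.1%. With only peaks at or above the median score the number was 5 (13.5%, beside 7.99%). With those peaks the number with any peak was 7, a count that could only fall. The median score of gene-end peaks was 141, a value that could only rise. The share of all protein-coding genes with any such peak was not computed. With a window of 5 kb, no inside peak remained (0) and 9 gene-end peaks were shared with another gene end. Neither share over all protein-coding genes was computed at this window. Annotated starts added to the ends gave 10 of 37 (27.0%, beside 14.7% of all protein-coding genes). In the list by E2 fold, which leaves out Ube2cbp and adds genes of other names, the share was 12 of 44 (27.3%, beside 13.9% of all protein-coding genes). Without genes named Olfr or Vmn the background was 14.8%. No paired analysis was possible because the design has 1 library per antibody. Read depth is unknown, and sites scoring under 50 are not listed.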

Other observations

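For several Ube2 genes without a peak, the nearest listed peak lay at the ends of other genes, with its midpoint 11.9 to 303 kb away. For the others it reached no gene end. Of all 5079 listed peaks, 2466 lay at an end of a protein-coding gene, whereas the other genes counted here were of any kind. The nearest peak to Ube2e1 and also to Ube2e2 was the same one, of score 53.4, at ends of Rpl15, a ribosomal protein gene, and Nkiras1, at 11.9 and 303 kb. The nearest to Ube2l6 had a score of 193 (Timm10 and Smtnl1, 16.9 kb), that of Ube2n 187 (Cradd, 191 kb), that of Ube2q2 164 (Ireb2, 286 kb) and that of Ube2v2 159 (Mcm4 and Prkdc, 43.0 kb). The nearest to Ube2w had a score of 112 and reached Eloc, a subunit gene of cullin ligases, and D030040B21Rik, 37.5 kb away. None of 5 records named Ube2 that are not protein-coding (Ube2l3-ps1, Ube2n-ps1, Ube2nl, Ube2d-ps and Ube2uos) had a peak at an end or inside. The share over all pseudogene and lncRNA records was not computed, so this count has no background to be set against.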
